A study of Mus musculus with 8 samples.

Results

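The genes described here are the embryonic and adult globins, taken as every row of the deposited expression table whose symbol begins with Hba- or Hbb-. There are 11 such rows among 33504 genes. Embryonic globins are Hba-x, Hbb-bh1 and Hbb-y, adult globins are Hba-a1, Hba-a2, Hbb-bs and Hbb-bt, and the other 4 rows are the minor gene Hbb-bh2 and the pseudogenes Hbb-bh0, Hbb-bh3 and Hba-ps4. RNA was sequenced from mouse blood stem cell populations on a C57BL/6J background, labelled pre-HSC at embryonic day 11.5 (3 libraries), ex-HSC with the stage in vitro (3 libraries) and FL-HSC at embryonic day 14.5 (2 libraries), where HSC means hematopoietic stem cell and FL was taken to mean fetal liver. All 8 libraries carry the same cell type label, hematopoietic stem cells. Conceptuses came from C57BL/6J females mated with wild-type males or with males of the Ly6a-GFP transgenic line, in which the Ly6a promoter drives green fluorescent protein, and the labels do not say which libraries came from which mating. The ex-HSC libraries were taken to be cells recovered from the described 4-day culture, in which sorted embryonic cells were mixed with the mouse stromal line OP9 and grown as a reaggregate in medium with SCF, IL-3 and Flt3L. Sort gates and the origin of the replicates are not given, so the p-values cover the spread among these libraries alone, which may be technical.

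Hemoglobin is a tetramer of alpha-like and beta-like chains, each holding a heme. In the mouse the first red cells, made in the yolk sac, use among others the embryonic chains zeta (Hba-x), epsilon-y (Hbb-y) and beta-h1 (Hbb-bh1). The red cells that the fetal liver makes later use adult alpha and beta chains. Adult alpha RNA is not taken here as particular to those later cells. Beyond red cells and their precursors, globin RNA is usually scarce. Whether a bulk value comes from many cells with a little RNA or a few cells with much cannot be told apart here, and neither can fewer cells of a type and less RNA per cell.

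The alpha-like genes lie on chromosome 11 and the beta-like genes on chromosome 7, in GENCODE M21 on GRCm38, a later build than the mm9 of the submitters' processing notes. Hba-x occupies chr11:32276400-32278116, Hba-a1 chr11:32283511-32284465 and Hba-a2 chr11:32296489-32297298, all on the plus strand. Hbb-bt occupies chr7:103812524-103813996, Hbb-bs chr7:103826534-103828096, Hbb-bh1 chr7:103841637-103843164 and Hbb-y chr7:103851749-103853216, all on the minus strand, so Hbb-y is the member nearest the 5′ end of the cluster as it is transcribed. Each of the 7 genes has 3 exons in its first annotated transcript. Hba-ps4 lies outside both clusters, at chr17:26286363-26287061.

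Near-identical copies limit what the adult values can show, and the first 75 bases of the coding sequences, the length of 1 read, are printed to show this. Capitals mark bases that differ from Hba-a1 within the alpha-like genes or from Hbb-bs within the beta-like genes.
Hba-a1: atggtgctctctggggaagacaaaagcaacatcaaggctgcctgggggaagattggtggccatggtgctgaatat
Hba-a2: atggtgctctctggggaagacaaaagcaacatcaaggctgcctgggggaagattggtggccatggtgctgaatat
Hba-x: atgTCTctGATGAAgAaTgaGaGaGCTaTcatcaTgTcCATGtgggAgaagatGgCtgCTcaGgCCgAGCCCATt
Hbb-bs: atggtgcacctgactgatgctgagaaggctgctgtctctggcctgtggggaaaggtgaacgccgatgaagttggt
Hbb-bt: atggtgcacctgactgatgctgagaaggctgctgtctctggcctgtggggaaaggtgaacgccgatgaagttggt
Hbb-y: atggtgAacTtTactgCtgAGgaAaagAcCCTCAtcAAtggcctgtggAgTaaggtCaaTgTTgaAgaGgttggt
Hbb-bh1: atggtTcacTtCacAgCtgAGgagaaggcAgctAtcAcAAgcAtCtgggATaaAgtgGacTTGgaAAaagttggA
In these windows Hba-a2 has 0 differences from Hba-a1 and Hbb-bt has 0 from Hbb-bs, whereas Hba-x differs at 38 bases, Hbb-y at 23 and Hbb-bh1 at 24. Over the whole coding sequence, Hba-a1 and Hba-a2 differ at 1 of 426 bases and Hbb-bs and Hbb-bt at 1 of 441. Hbb-y shares 74.4% of aligned bases with Hbb-bs and 76.4% with Hbb-bh1, and Hba-x shares 61.7% with Hba-a1.

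Windows of 75 bases along the full transcripts were then compared. Of those of Hba-a1, 62.2% also occur in Hba-a2, and of those of Hba-a2, 81.0% occur in Hba-a1. Of those of Hbb-bs, 64.3% occur in Hbb-bt, and of those of Hbb-bt, 56.6% occur in Hbb-bs. No window of Hba-x, Hbb-bh1 or Hbb-y occurs in another globin transcript of the table. The split of an adult value between its 2 copies therefore depends on how shared reads were assigned, which the sources used here do not give, and the sum of each pair is given beside the single genes.

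**Figure D1:**
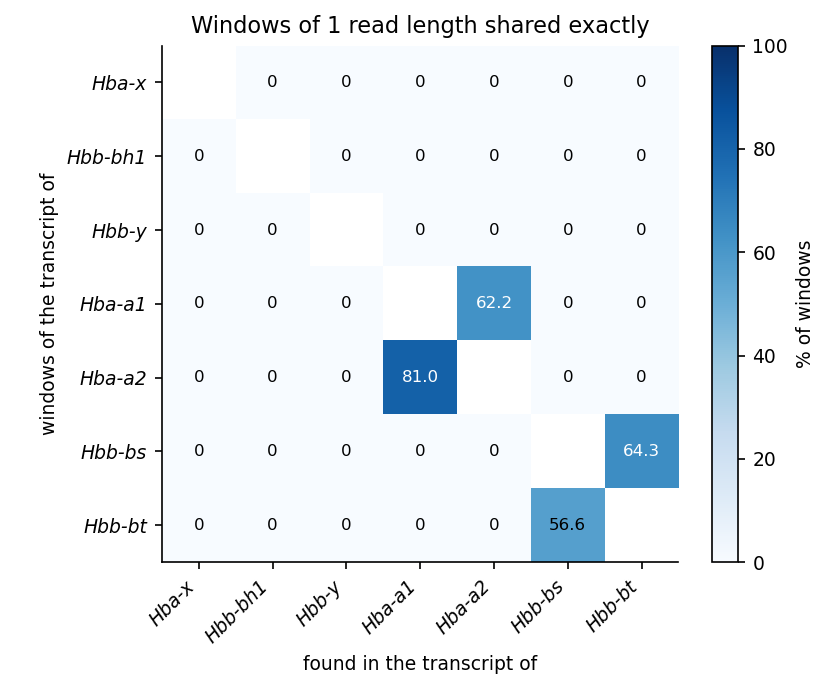
Share of the 75-base windows of each transcript (rows) that occur exactly in the transcript of another globin (columns), in percent, from GENCODE M21. Shared windows occur between Hba-a1 and Hba-a2 and between Hbb-bs and Hbb-bt, from 56.6% to 81.0%, and every other pair is at 0.

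Promoters were read for 7 of the 11 genes from RefSeq (GRCm38.p6). The 120 bases before the RefSeq start are printed for members that moved differently in these data. These starts differ from the ends of the GENCODE spans given above. The windows of Hba-x, Hba-a1 and Hbb-bs lie inside those spans, and those of Hbb-bt and Hbb-y overlap them in part. Capitals mark a match on either strand to CACCC, to the box with the letters CCAAT or to the motif GATAA. Capitals in the last 40 bases also mark TATAA on the gene's strand, and on the same strand the shifted form ATAAA, which can overlap the former by 4 letters.
Hbb-y, chr7:103853208-103853327, minus strand: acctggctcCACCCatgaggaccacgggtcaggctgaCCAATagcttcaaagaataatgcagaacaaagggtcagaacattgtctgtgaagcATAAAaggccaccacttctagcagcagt
Hbb-bs, chr7:103827929-103828048, minus strand: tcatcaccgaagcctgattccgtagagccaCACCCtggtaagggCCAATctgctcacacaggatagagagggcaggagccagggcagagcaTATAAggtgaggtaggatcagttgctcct
Hbb-bt, chr7:103813924-103814043, minus strand: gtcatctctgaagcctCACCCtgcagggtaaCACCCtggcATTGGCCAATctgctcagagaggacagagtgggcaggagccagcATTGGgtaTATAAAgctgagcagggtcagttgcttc
Hba-x, chr11:32276480-32276599, plus strand: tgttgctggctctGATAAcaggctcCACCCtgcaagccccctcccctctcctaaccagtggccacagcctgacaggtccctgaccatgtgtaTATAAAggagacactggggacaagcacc
Hba-a1, chr11:32283552-32283671, plus strand: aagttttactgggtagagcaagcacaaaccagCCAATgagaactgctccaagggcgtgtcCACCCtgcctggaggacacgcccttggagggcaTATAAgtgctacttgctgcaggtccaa
CACCC, the core of the sites bound by the red cell factor KLF1, occurs in all 5 of these windows, and in 31.7% of 32851 promoter windows of the same length. CCAAT is in the windows of Hbb-y, Hbb-bs, Hbb-bt and Hba-a1 but not in that of Hba-x, against 21.3% of all windows, and in Hbb-bt it directly follows its own reverse complement. GATAA, the core that GATA factors bind, is in the Hba-x window only, against 10.5% of all windows. TATAA is in the last 40 bases of Hbb-bs, Hbb-bt, Hba-x and Hba-a1, against 4.23% of all promoters, and Hbb-y has ATAAA there, against 5.50%. Unlike their coding sequences, the windows of Hbb-bs and Hbb-bt are distinct, with 72.7% of aligned bases identical, while those of Hba-a1 and Hba-a2 share 95.1%. The window of Hbb-bh2, read but not printed, holds none of these motifs, and no promoter was available for Hbb-bh1. A match of letters is not a bound site.

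The deposited unit is FPKM, a fragment count scaled to transcript length and library size, and read depth is unknown. Summed FPKM per library ran from 553227 to 745619, and between 11682 and 12757 genes per library had at least 1 FPKM. ex-HSC replicate 2 stood apart, with 24992 genes above 0 against 15622 to 18374 in the other 7 libraries. All 8 blood stem and progenitor markers on the fixed list (Ptprc, Kit, Runx1, Spn, Itga2b, Gfi1, Gata2 and Myb) had at least 1 FPKM in every library. The summed level of 6 endothelial markers was 1482 to 1643 FPKM in pre-HSC, 29.8 to 57.2 among ex-HSC libraries and 81.9 to 91.9 for the FL-HSC pair, and that of 6 stromal markers was 281 to 534, 6.05 to 19.7 and 3.47 to 4.15. Markers of other blood cells differed as well, with a sum of 7 mast cell markers of 0.487 to 6.43 FPKM in pre-HSC, 1707 to 3470 among ex-HSC libraries and 6.73 and 6.96 for the FL-HSC pair. The sum of 6 neutrophil markers was 16.9 to 28.2, 496 to 773 and 356 to 441 FPKM in the same order. All 7 mast cell and all 6 neutrophil markers rose in ex-HSC against pre-HSC, where 15.7% of all genes tested were called higher. The part of such cells in the globin differences was not tested. Differences were tested with limma on log2(FPKM + 1) over the 13720 genes that reached 1 FPKM in 2 or more libraries, and a gene was called at a Benjamini-Hochberg adjusted p under 0.05. Fold changes on this scale understate those of genes with low values.

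Of the 11 globins, 7 passed the filter and were tested, the 3 embryonic and 4 adult genes. In ex-HSC against pre-HSC, 3 of the 7 fell, 2 rose and 2 did not pass. Among all genes tested in that comparison, 28.4% were called lower, 15.7% higher and 44.1% in either direction. In FL-HSC against pre-HSC, 4 globins fell, 2 rose and 1 did not pass, beside 20.4% of all genes called lower, 22.9% higher and 43.3% either way. In FL-HSC against ex-HSC, 2 were lower, none was higher and 5 did not pass, beside 9.15% of all genes called lower, 24.1% higher and 33.3% either way. With only 7 members tested and so many genes called, the counts alone say little, and the sizes and the order of the levels carry the description.

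**Figure D2:**
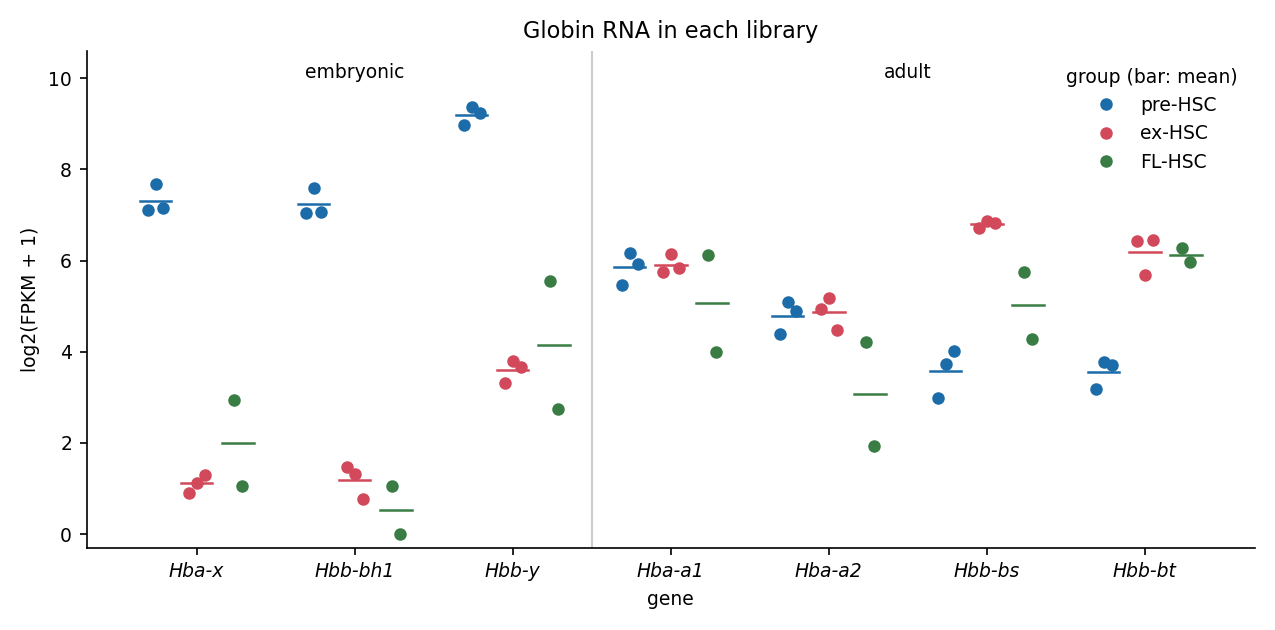
Levels of the 7 tested globins in each of the 8 libraries, as log2(FPKM + 1), with points for libraries, bars for group means and colours for groups. The 3 embryonic genes are far higher in every pre-HSC library than elsewhere, Hbb-bs and Hbb-bt are lowest in pre-HSC, and Hba-a1 has groups that overlap.

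Embryonic globins were the most abundant globin RNAs of pre-HSC, apart from an isolated value of the pseudogene Hbb-bh0 in 1 library. Hbb-y, the gene of the epsilon-y chain, stood at 501, 663 and 601 FPKM in the 3 pre-HSC libraries, where it ranked between 124 and 143 of all genes. It stood at 9.02, 12.9 and 11.6 FPKM in ex-HSC and at 46.0 and 5.71 FPKM in FL-HSC. The pre-HSC libraries did not overlap with any other, and the ex-HSC values lie between those of the 2 FL-HSC libraries.

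The drop of Hbb-y passed in both comparisons against pre-HSC, which share the pre-HSC libraries. From a mean of 588 ± 81.8 (SD, n = 3) in pre-HSC it fell 52.5-fold to 11.2 ± 1.99 (n = 3) in ex-HSC (a log2 fold change of -5.60 ± 0.53 SE, limma adjusted p = 9.12e-06). In FL-HSC the mean was 25.9 ± 28.5 (n = 2), 22.7-fold below pre-HSC (-5.04 ± 0.59, limma adjusted p = 6.65e-05). The log2 fold change in FL-HSC was -3.64 when FL-HSC replicate 2 was left out and -6.45 when replicate 1 was, and Hbb-y was called in each case.

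Hba-x, the gene of the zeta chain and the sole embryonic alpha-like globin, followed the same course. Its values were 138, 203 and 142 FPKM in pre-HSC, 0.882, 1.19 and 1.47 among ex-HSC libraries and 6.63 and 1.07 for the FL-HSC pair. All 3 pre-HSC libraries were above the other 5. Hba-x fell 136-fold in ex-HSC (a log2 fold change of -6.20 ± 0.39, limma adjusted p = 4.41e-07) and 41.8-fold in FL-HSC (-5.32 ± 0.44, limma adjusted p = 4.92e-06). The latter value was -4.39 when FL-HSC replicate 2 was left out and -6.26 when replicate 1 was, and was called in each case.

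Hbb-bh1, the gene of the beta-h1 chain, stood at 131, 192 and 132 FPKM in pre-HSC, 1.77, 1.51 and 0.708 among ex-HSC libraries, and was listed at 1.09 and 0 in FL-HSC. Pre-HSC replicate 2 was the highest library for all 3 embryonic genes. Hbb-bh1 fell 114-fold in ex-HSC (a log2 fold change of -6.04 ± 0.31, limma adjusted p = 9.01e-08) and also in FL-HSC (-6.70 ± 0.34, limma adjusted p = 1.87e-07). No linear fold is given for FL-HSC because 1 of its 2 libraries is listed at 0.

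The embryonic genes kept different proportions in the groups. The ratio of Hbb-y to Hbb-bh1 was 3.44 to 4.54 in pre-HSC and 5.10 to 16.4 in ex-HSC, where Hbb-bh1 was near 1 FPKM, and it was 42.3 in FL-HSC replicate 1. The ratio of Hbb-y to Hba-x was 3.27 to 4.23 in pre-HSC, 7.89 to 10.9 among ex-HSC libraries and 6.94 and 5.32 for the FL-HSC pair. Within these libraries Hbb-y was thus the embryonic globin with the highest remaining level after the drop.

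Between FL-HSC and ex-HSC none of the 3 embryonic genes passed, and the signs of Hbb-y and Hba-x depended on 1 FL-HSC library. The log2 fold change of Hbb-y was 0.56 ± 0.59 (limma adjusted p = 0.510), that of Hba-x 0.87 ± 0.44 (adjusted p = 0.152) and that of Hbb-bh1 -0.66 ± 0.34 (adjusted p = 0.166). Without FL-HSC replicate 2, Hbb-y was higher in FL-HSC by 1.96 (adjusted p = 0.00125, with a range of 0.00125 to 0.848 over 19 alternative fits) and Hba-x by 1.81 (adjusted p = 0.00320, range 0.00320 to 0.900), both called. Without FL-HSC replicate 1 the values were -0.85 and -0.065, neither called, and Hbb-bh1 was called lower at -1.19 (adjusted p = 0.0373, range 0.0373 to 0.828). With 1 FL-HSC library left, that library is assumed to vary like the other groups.

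Adult beta globins moved the opposite way. Hbb-bt, the gene of the beta-t chain, stood at 8.07, 12.7 and 12.0 FPKM in pre-HSC, 85.6, 50.4 and 87.1 among ex-HSC libraries and 76.6 and 61.8 for the FL-HSC pair. The pre-HSC libraries were all below the other 5, and ex-HSC and FL-HSC overlapped. Hbb-bt rose 6.80-fold in ex-HSC (a log2 fold change of 2.64 ± 0.25, limma adjusted p = 1.01e-05) and 6.33-fold in FL-HSC (2.57 ± 0.28, limma adjusted p = 4.14e-05). Between FL-HSC and ex-HSC its difference was -0.069 ± 0.28 (adjusted p = 0.876), and the sign turned to 0.053 without ex-HSC replicate 1, 0.065 without ex-HSC replicate 3 and 0.084 without FL-HSC replicate 2.

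Hbb-bs, the gene of the beta-s chain, stood at 6.87, 12.2 and 15.3 FPKM in pre-HSC, 104, 116 and 113 among ex-HSC libraries and 53.1 and 18.3 for the FL-HSC pair. The 3 groups did not overlap, with pre-HSC lowest and ex-HSC highest. Hbb-bs rose 9.69-fold in ex-HSC (a log2 fold change of 3.23 ± 0.36, limma adjusted p = 3.11e-05) and 3.12-fold in FL-HSC (1.44 ± 0.40, limma adjusted p = 0.0146). It was 3.11-fold lower in FL-HSC than its ex-HSC level (-1.79 ± 0.40, limma adjusted p = 0.00705).

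Of these 3 calls of Hbb-bs, the rise in ex-HSC held in all 18 alternative fits and those that involve FL-HSC did not. The rise in FL-HSC was lost without FL-HSC replicate 1 (a log2 fold change of 0.70, adjusted p = 0.178), without a filter on low values (adjusted p = 0.0638) and in a fit of the 2 groups alone (adjusted p = 0.0713) and with median-of-ratios scaling when ex-HSC replicate 2 was left out (adjusted p = 0.0550), with a range of 0.00115 to 0.178 over 18 fits. The difference between FL-HSC and ex-HSC was lost without FL-HSC replicate 2 (-1.05, adjusted p = 0.0670, range 0.00122 to 0.0670).

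As the copies share most of their sequence, the sum of Hbb-bs and Hbb-bt was also taken. The annotated transcripts have 628 and 703 bases, so the split of shared reads also enters this sum through the length scaling. The sum was 14.9, 24.9 and 27.3 FPKM in pre-HSC, 190, 166 and 200 among ex-HSC libraries and 130 and 80.1 for the FL-HSC pair, and the 3 groups did not overlap. Entered as 1 row in place of the single copies, it rose in ex-HSC (a log2 fold change of 3.03 ± 0.25, limma adjusted p = 3.41e-06) and in FL-HSC (2.18 ± 0.28, limma adjusted p = 0.000137), and its FL-HSC level lay below that of ex-HSC (-0.85 ± 0.28, limma adjusted p = 0.0404). The ratio of Hbb-bs to Hbb-bt was 0.852 to 1.27 in pre-HSC, 1.22 to 2.30 among ex-HSC libraries and 0.693 and 0.297 for the FL-HSC pair, and the part that the assignment of shared reads has in it was not tested.

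Adult alpha globins did not rise with the beta genes. Hba-a1 stood at 43.3, 71.2 and 59.7 FPKM in pre-HSC, 52.5, 70.0 and 56.5 among ex-HSC libraries and 68.7 and 15.0 for the FL-HSC pair. Hba-a2, the second adult alpha gene, stood at 20.0, 32.9 and 28.9 FPKM in pre-HSC, 29.7, 35.0 and 21.3 among ex-HSC libraries and 17.5 and 2.82 for the FL-HSC pair. The pre-HSC and ex-HSC libraries overlapped for both genes, and FL-HSC replicate 2 was the lowest library for both.

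In ex-HSC against pre-HSC the log2 fold change was 0.057 ± 0.43 for Hba-a1 (limma adjusted p = 0.926) and 0.072 ± 0.47 for Hba-a2 (adjusted p = 0.914), and neither was called in any of 18 alternative fits. The signs turned when pre-HSC replicate 1 (-0.14 and -0.13) or ex-HSC replicate 2 was left out (-0.062 and -0.082) and with median-of-ratios scaling in the latter case (-0.032 and -0.053). These standard errors also take in the spread of the FL-HSC pair, and in a fit of the 2 groups alone they were 0.23 and 0.25. No change of these genes in ex-HSC was detected, and a change within these errors was not excluded. In FL-HSC against pre-HSC, Hba-a1 did not pass (-0.79 ± 0.48, adjusted p = 0.206) while Hba-a2 fell 2.69-fold (-1.72 ± 0.52, limma adjusted p = 0.0216). In FL-HSC against ex-HSC, Hba-a1 did not pass (-0.85 ± 0.48, adjusted p = 0.201) and Hba-a2 was 2.83-fold lower (-1.79 ± 0.52, limma adjusted p = 0.0234).

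The alpha results in FL-HSC turned on single libraries. Without FL-HSC replicate 2, Hba-a1 had a log2 fold change of 0.27 against pre-HSC and 0.21 against ex-HSC, and without FL-HSC replicate 1 it was called lower in both, at -1.85 (adjusted p = 0.00154, range 0.00154 to 0.540 over 18 fits) and -1.91 (adjusted p = 0.00265, range 0.00265 to 0.674). Hba-a2 lost its call without FL-HSC replicate 2, at -0.59 against pre-HSC (adjusted p = 0.222, range 0.000167 to 0.222) and -0.66 against ex-HSC (adjusted p = 0.209, range 0.000449 to 0.209). Its call against ex-HSC was also lost without ex-HSC replicate 1 (-1.76, adjusted p = 0.0543) and without ex-HSC replicate 2 (-1.64, adjusted p = 0.0956, or 0.0759 with median-of-ratios scaling as well), and without a filter on low values both calls of Hba-a2 were lost, at adjusted p = 0.0917 and 0.102. In a fit of FL-HSC and pre-HSC alone it did not pass either (adjusted p = 0.0866). Entered as the sum of Hba-a1 and Hba-a2, adult alpha RNA did not pass in any comparison, at 0.067 ± 0.45 for ex-HSC against pre-HSC (limma adjusted p = 0.916), -1.06 ± 0.50 for FL-HSC against pre-HSC (0.107) and -1.13 ± 0.50 for FL-HSC against ex-HSC (0.106).

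**Figure D3:**
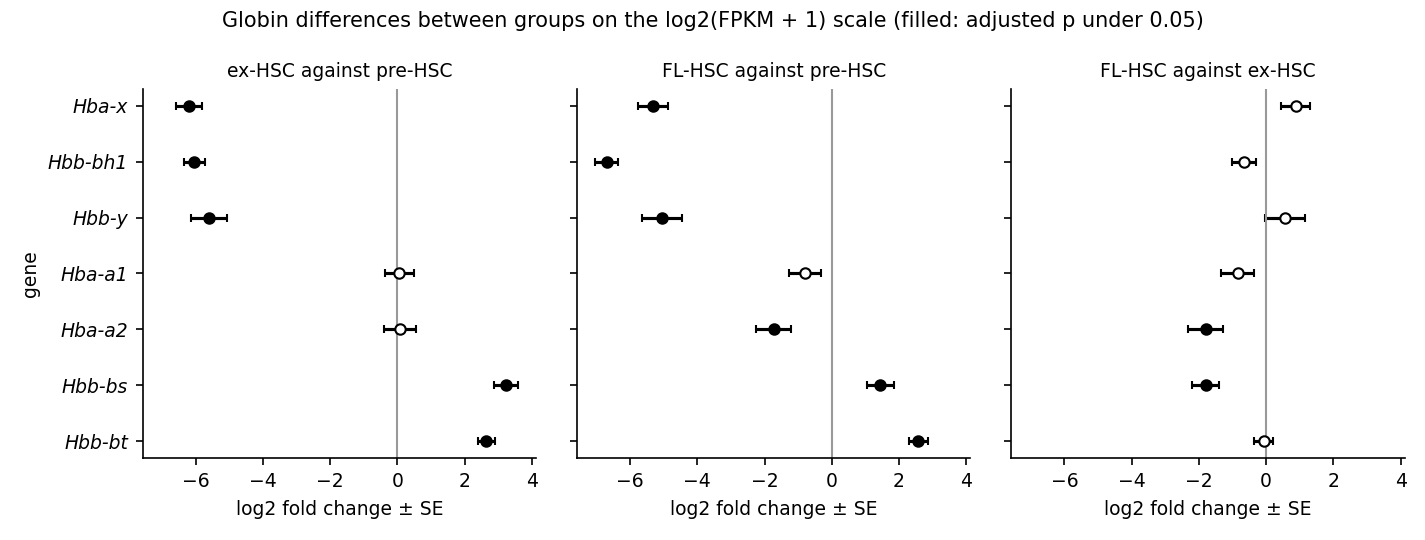
Log2 fold changes of the 7 tested globins on the log2(FPKM + 1) scale with their standard errors from limma, in the 3 comparisons, with filled points at an adjusted p under 0.05. Against pre-HSC the embryonic genes lie between -6.70 and -5.04 and the adult beta genes between 1.44 and 3.23, while Hba-a1 is open in every panel.

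The other 4 globin rows did not pass the filter. Hbb-bh2 and Hbb-bh3 were listed at 0 in all 8 libraries, and Hba-ps4 at most at 0.301 FPKM. Hbb-bh0, a pseudogene annotated over 129 bases (chr7:103850020-103850148) between Hbb-bh1 and Hbb-y, was listed at 385 FPKM in pre-HSC replicate 2 and at 0 in the other 7 libraries. It was 1 of 28 genes of the table with at least 100 FPKM in 1 library and 0 in the other 7. Pre-HSC replicate 2 is also the library with the most Hbb-y, Hbb-bh1 and Hba-x, and the part of its short annotated length in this value was not tested.

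Within a library, where a scaling factor has no part, the make-up of globin RNA changed from embryonic to adult. On the beta-like side, Hbb-y and Hbb-bh1 made up 97.7%, 67.6% and 96.4% of FPKM in pre-HSC, a mean of 87.2% ± 17.0, and without the isolated Hbb-bh0 value the library at 67.6% had 97.2% and the mean was 97.1% ± 0.647. The share was 5.37%, 8.0% and 5.81% for ex-HSC (6.39% ± 1.41) and 26.6% and 6.65% for the FL-HSC pair (16.6% ± 14.1). On the alpha-like side, Hba-x made up 68.5%, 66.0% and 61.6% in pre-HSC (65.4% ± 3.49), 1.06%, 1.12% and 1.86% among ex-HSC libraries (1.35% ± 0.443) and 7.14% and 5.68% for the FL-HSC pair (6.41% ± 1.03). Adult chains held a larger part of alpha-like than of beta-like RNA in each pre-HSC library, with Hbb-bh0 counted or left out.

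Adult beta and adult alpha RNA were out of step between groups. The ratio of summed adult beta to summed adult alpha FPKM was 0.236, 0.239 and 0.309 in pre-HSC, 2.31, 1.58 and 2.57 among ex-HSC libraries and 1.5 and 4.5 for the FL-HSC pair. The pre-HSC libraries lay below all others. With embryonic chains included and Hbb-bh0 left out, the ratio of all beta-like to all alpha-like RNA was 2.87 to 3.30 in pre-HSC, 1.70 to 2.68 among ex-HSC libraries and 1.90 and 4.54 for the FL-HSC pair, so beta-like RNA exceeded alpha-like RNA in every library. These are ratios of levels per kilobase of RNA and give no ratio of protein chains.

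**Figure D4:**
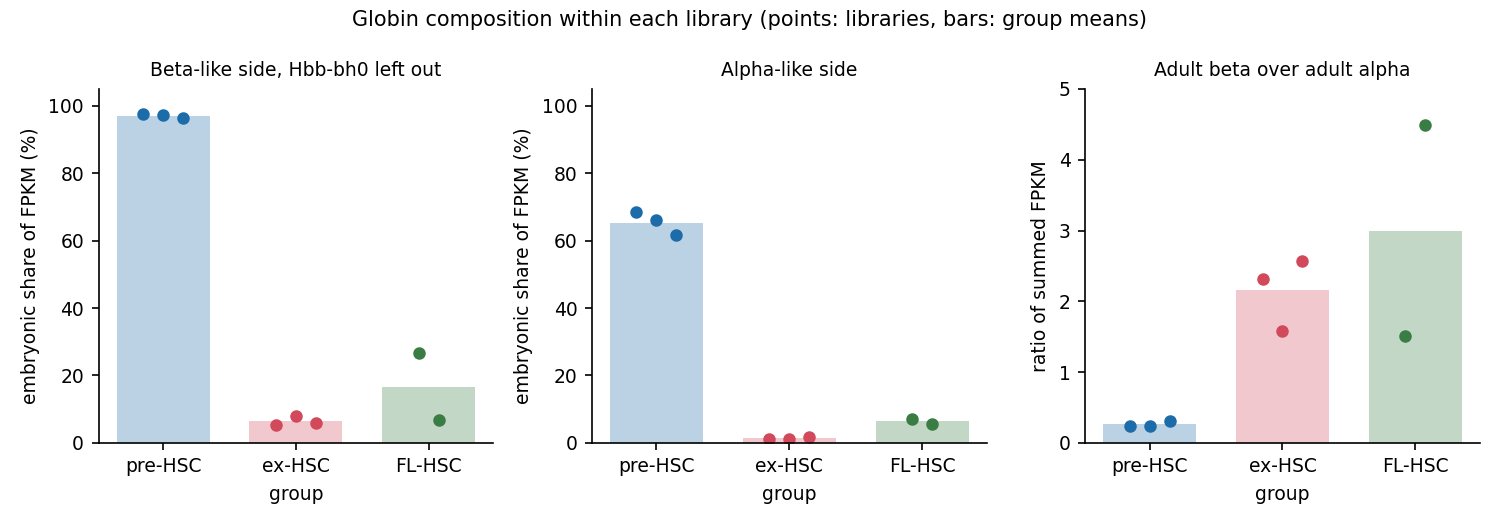
Embryonic share of beta-like FPKM (Hbb-bh0 left out), embryonic share of alpha-like FPKM, and the ratio of summed adult beta to summed adult alpha FPKM, with points for libraries and bars for group means. Pre-HSC libraries lie at 96.4% to 97.7% and 61.6% to 68.5% with ratios of 0.236 to 0.309, and all ex-HSC and FL-HSC libraries lie at or below 26.6% and 7.14% with ratios of 1.5 or more.

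Total globin RNA was a small part of each library. Without Hbb-bh0, the summed FPKM of all globins was 848, 1187 and 991 in pre-HSC, 284, 287 and 292 among ex-HSC libraries and 270 and 105 for the FL-HSC pair. As percent of all FPKM, with Hbb-bh0 included, globins held 0.15%, 0.272% and 0.164% in pre-HSC, 0.0390%, 0.0519% and 0.0397% among ex-HSC libraries and 0.0362% and 0.0163% for the FL-HSC pair. Adult globins alone summed to 78.2 to 129 FPKM in pre-HSC, 271 to 278 among ex-HSC libraries and 216 and 98.0 for the FL-HSC pair.

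The 2 FL-HSC libraries differed from each other in globin RNA. FL-HSC replicate 1 was above replicate 2 for all 7 tested genes, by 46.0 against 5.71 FPKM for Hbb-y and by 68.7 against 15.0 for Hba-a1, and by 76.6 against 61.8 for Hbb-bt. Alas2, the erythroid enzyme that starts heme synthesis, stood at 1.81 and 0.811 FPKM in these libraries, and Slc4a1, the anion exchanger of red cells, at 7.29 and 1.81. The 7 macrophage markers, genes of cells that can engulf red cells, summed to 332 and 45.8 FPKM, and Hmox1, which breaks down heme, stood at 192 and 29.9. The whole list of 20 red cell markers in the table summed to 774 and 699 FPKM, with 20 and 19 of them at 1 FPKM or more. The 6 hepatocyte markers summed to 57.2 and 16.1 FPKM, with Alb, the gene of albumin, at 10.8 and 2.70. The part of macrophage, hepatocyte or red cell RNA in the difference was not tested.

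The same markers moved with the globins in some groups and not in others. In pre-HSC the macrophage markers summed to 619, 209 and 1291 FPKM, and the library with the least, replicate 2, had the most embryonic globin. The red cell markers summed to 135 to 154 FPKM in pre-HSC, with 9 or 10 of 20 at 1 FPKM or more and Tspo2 and Car1 listed at 0 in all 3, and to 195 to 310 in ex-HSC, with 14 to 17 of 20. Car2, the gene of a carbonic anhydrase that other cells use too, made up the whole step between these groups. It had 30.4, 37.1 and 32.3 FPKM in pre-HSC and 183, 119 and 215 in the cultured cells. Without Car2, the summed red cell markers overlapped between pre-HSC and ex-HSC libraries and had the lower mean in ex-HSC. Of the 20 red cell markers, 8 rose, 2 fell and 10 did not pass in ex-HSC against pre-HSC. Over all genes tested there, 15.7% were called higher and 28.4% lower. Aqp1, a water channel of red cells and endothelium, was among the markers that fell. In ex-HSC the macrophage markers summed to 134 to 201 FPKM.

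Known activators of globin genes were described next. Their counts stand beside shares over all genes tested. In FL-HSC against pre-HSC 22.9% were called higher and 20.4% lower, and in FL-HSC against ex-HSC 24.1% and 9.15%. In ex-HSC against pre-HSC the shares were 15.7% and 28.4%. Of 7 activators tested, 5 rose and 1 fell in FL-HSC against pre-HSC (median log2 fold change 1.49, beside 0.13 over all genes), and 6 were higher and 1 lower in FL-HSC against ex-HSC (median 1.80, beside 0.27). In ex-HSC against pre-HSC, 3 rose and 2 fell (median -0.31, beside -0.16). In that comparison 1 fell without pre-HSC replicate 2, and 3 fell when ex-HSC replicate 1 or 2 was left out, with a median of -0.054 in the latter case. Klf1, the factor that drives adult beta globin in red cells, stood at 0.837, 0.757 and 0.873 FPKM in pre-HSC, 4.70, 1.90 and 2.08 among ex-HSC libraries and 107 and 66.6 for the FL-HSC pair.

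Klf1 rose 3.52-fold in ex-HSC (a log2 fold change of 1.03 ± 0.29, limma adjusted p = 0.0139) and 106-fold in FL-HSC (5.55 ± 0.32, adjusted p = 3.84e-07). Gata1, a GATA factor found in red cells and other blood cells, rose from 0.906 ± 0.128 FPKM to 9.68 ± 4.44 in ex-HSC (2.41 ± 0.29, limma adjusted p = 5.83e-05). It reached 53.7 ± 15.6 in FL-HSC (4.81 ± 0.33, limma adjusted p = 1.25e-06). Its ex-HSC values were 14.6, 6.00 and 8.43 FPKM, in libraries whose mast cell markers summed to 3470, 1708 and 1707. The part of mast cells in the Gata1 level was not tested. Klf1 was 30.0-fold higher in FL-HSC than its ex-HSC level (4.53 ± 0.32, adjusted p = 6.55e-06). In that comparison the adult beta sum was lower, with Hbb-bs called lower and Hbb-bt not called (-0.069 ± 0.28). The sum was not fitted with a library left out, and the call of Hbb-bs was lost without FL-HSC replicate 2. Klf2, a related factor that acts on embryonic globin in mouse embryos, went the other way, from 115 ± 3.68 FPKM in pre-HSC to 30.2 ± 21.2 in ex-HSC (-2.24 ± 0.52, adjusted p = 0.00508) and 1.53 ± 1.08 in FL-HSC (-5.59 ± 0.58, adjusted p = 2.65e-05). Nfe2, a partner factor of the beta globin enhancer, rose from 16.0 ± 3.75 to 44.9 ± 9.27 and 138 ± 11.0 FPKM (adjusted p = 0.000398 and 4.90e-06).

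Repressors of embryonic globin were counted in the same way, beside the shares over all genes given for the activators. In ex-HSC against pre-HSC the counts of repressors lay near those shares, 15.7% higher and 28.4% lower. Of 10 tested, 7 rose and 0 fell in FL-HSC (median log2 fold change 0.81, beside 0.13 over all genes), while 2 rose and 3 fell in ex-HSC (median -0.11, beside -0.16), and 8 were higher and 0 lower in FL-HSC against ex-HSC (median 1.05, beside 0.27). In FL-HSC against pre-HSC, 4 rose when FL-HSC replicate 2 or pre-HSC replicate 3 was left out. In ex-HSC, 1 rose when pre-HSC replicate 1, pre-HSC replicate 2 or ex-HSC replicate 1 was left out, and the median turned to 0.066 under median-of-ratios scaling and to 0.058 without ex-HSC replicate 2. Bcl11a, the silencer of embryonic and fetal globins, stood at 12.2, 13.6 and 13.4 FPKM in pre-HSC, 36.8, 20.4 and 35.5 among ex-HSC libraries and 66.7 and 75.2 for the FL-HSC pair, with no overlap. It rose in ex-HSC (1.13 ± 0.23, limma adjusted p = 0.00218) and in FL-HSC (2.35 ± 0.26, adjusted p = 3.83e-05).

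Sox6, which represses Hbb-y together with BCL11A, was low, at 1.27 ± 0.536 FPKM in pre-HSC. It fell to 0.217 ± 0.0545 in ex-HSC (a log2 fold change of -0.87 ± 0.21, limma adjusted p = 0.00564) and was at 1.43 ± 0.103 in FL-HSC (a difference of 0.12 ± 0.23 from pre-HSC, adjusted p = 0.699). Myb, a factor of progenitor cells, did not pass in ex-HSC (25.0 ± 8.91 against 17.8 ± 3.86 FPKM, adjusted p = 0.250) and rose to 123 ± 14.2 in FL-HSC (2.74 ± 0.31, adjusted p = 4.96e-05). Zbtb7a, a second silencer of fetal globin in human cells, rose in FL-HSC from 9.39 ± 1.07 to 33.8 ± 3.25 FPKM (adjusted p = 0.000150).

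A list of heme and globin partner genes followed, which also holds Hmox1, a gene that breaks down heme. Of 14 tested, 8 rose and 0 fell in FL-HSC against pre-HSC (median log2 fold change 0.81, beside 0.13). In ex-HSC 2 rose and 2 fell (median 0.14, beside -0.16), and Hmox1 was 1 of those that fell. In FL-HSC against ex-HSC 5 were higher and 1 lower (median 0.61, beside 0.27). Over all genes, 22.9% were called higher and 20.4% lower in FL-HSC against pre-HSC, and 24.1% and 9.15% against ex-HSC. In ex-HSC the shares were 15.7% and 28.4%, so the count that rose was near its share and the count that fell was below. With other scaling the count that rose in ex-HSC was 4 with median-of-ratios and 7 with quantile normalization. When pre-HSC replicate 1 or ex-HSC replicate 1 was left out, 1 rose in ex-HSC, and when ex-HSC replicate 2 was, 3 rose. Without ex-HSC replicate 2 or 3, 1 fell there. In FL-HSC, 1 fell against pre-HSC without FL-HSC replicate 1, and 0 were lower than in ex-HSC without ex-HSC replicate 1. Cpox, an enzyme of heme synthesis, rose from 9.34 ± 0.593 to 16.5 ± 4.81 FPKM in ex-HSC (limma adjusted p = 0.0197) and reached 116 ± 6.35 in FL-HSC (adjusted p = 1.43e-06). Alad, the enzyme that acts on the product of ALAS2, fell from 49.7 ± 2.28 to 19.1 ± 5.09 FPKM in ex-HSC (adjusted p = 0.000421) and rose to 160 ± 25.6 in FL-HSC (adjusted p = 0.000304).

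Tfrc, the receptor for iron-bearing transferrin, rose from 11.7 ± 2.43 to 90.6 ± 16.4 FPKM in ex-HSC (limma adjusted p = 1.46e-05) and reached 45.3 ± 24.4 in FL-HSC (adjusted p = 0.00125). Alas2 was low in every group and did not pass against pre-HSC, with 2.10 ± 0.364 FPKM for pre-HSC, 2.79 ± 0.647 for ex-HSC (limma adjusted p = 0.359) and 1.31 ± 0.704 for FL-HSC (0.188). The other globin family genes on the fixed list, Hbq1a, Hbq1b, Mb, Cygb and Ngb, did not pass the filter, and the highest value among them was 1.12 FPKM, for Hbq1b in ex-HSC replicate 2.

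The 19 genes of the red cell membrane and surface are the 20 red cell markers above without Alas2, so their counts are not a separate result. Of these 19, 17 rose and 0 fell in FL-HSC against pre-HSC (median log2 fold change 2.95, beside 0.13 over all genes). In ex-HSC 8 rose and 2 fell (median 0.36, beside -0.16), and 16 were higher and 0 lower in FL-HSC against ex-HSC (median 2.27, beside 0.27). Over all genes, 22.9%, 15.7% and 24.1% were called higher in these comparisons, in the same order, and 20.4%, 28.4% and 9.15% lower. In ex-HSC, 6 rose without a filter and when any pre-HSC library, ex-HSC replicate 1 or ex-HSC replicate 2 was left out. With quantile normalization 11 rose there. In FL-HSC against ex-HSC, 14 were higher with median-of-ratios scaling and 17 with quantile normalization. Ermap, a red cell surface protein gene, had 0.801 ± 0.257 FPKM for pre-HSC, 2.97 ± 0.816 for ex-HSC and 68.8 ± 2.39 for FL-HSC, where it rose 85.9-fold (5.29 ± 0.24, limma adjusted p = 1.20e-07). Adult globin RNA did not follow these genes across groups, since its sum was 271 to 278 FPKM among ex-HSC libraries and 216 and 98.0 for the FL-HSC pair.

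**Figure D5:**
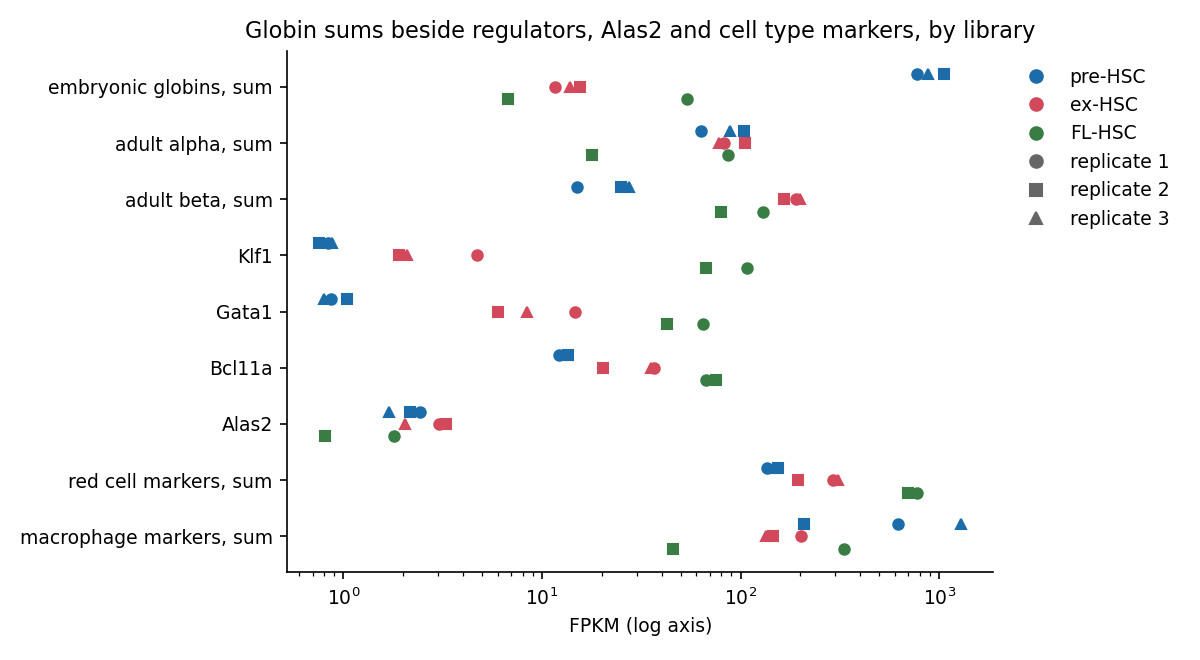
Summed FPKM of embryonic, adult alpha and adult beta globins beside Klf1, Gata1, Bcl11a, Alas2 and the summed red cell and macrophage markers in each library, on a log axis, with colours for groups and shapes for replicates. Klf1, Gata1 and the red cell markers are highest in both FL-HSC libraries, the adult beta sum is highest in ex-HSC, and FL-HSC replicate 2 lies below replicate 1 for the globin sums and the macrophage markers.

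The genes whose pattern over the 8 libraries was most like that of the summed embryonic globins were Cd38, Npr1, Chp2, Sema6d and Fabp4, with Pearson's r of 0.994 or 0.995 on the log2(FPKM + 1) scale. Cd38, the gene of a surface enzyme of blood and other cells, was at 35.3 to 37.0 FPKM in pre-HSC, 2.56 to 3.09 among ex-HSC libraries and 5.11 and 1.61 for the FL-HSC pair. Many genes share this high-to-low step, and 459 of 12295 genes compared had an r of at least 0.95, so the 5 are the top of a large group. For the summed other globins the leading genes were Cenpw, Rap1gap2, Nebl, Cntf and Phf11c, with r between 0.743 and 0.778, a sum that holds the isolated Hbb-bh0 value. Without that row, a choice made after it was seen, they were H2-Ab1, Iah1, Mrps7, Ahrr and Acsbg1, with r between 0.946 and 0.975.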

How the data were processed

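Poly(A)-selected RNA of 8 libraries was sequenced in paired-end mode with reads of 75 bases, per the labels' protocols. The authors deposited 1 table of FPKM, per the file headers. The tools named by the submitters' processing notes are edgeR, DESeq, featureCounts and Cufflinks, with the build mm9, and which tool made which value is not given in the sources used here. Of 33531 rows, 27 with dates for symbols were left out. No counts were used, depth is unknown, and an FPKM of 0 may be a failed estimate.

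Values were fitted as log2(FPKM + 1) in limma 3.58.1 under R 4.3.3, with a mean per group, an intensity trend and Benjamini-Hochberg adjustment over 13720 genes. The code was run on simulated data for ex-HSC against pre-HSC only, with raised levels and a common spread taken from pre-HSC. That run does not bear on the FL-HSC calls or on low values. Sequences came from GENCODE M21 transcripts and RefSeq promoters, aligned with Biopython 1.88. Groups follow the sample titles. Members and lists were chosen with earlier results of these data known. Named were all globins, Klf1, Gata1, Bcl11a, Sox6, Myb, Alas2, up to 4 called members of each list per comparison, and the 5 most similar genes, of which the text gives a part. Zfpm1 and Ahsp are not analysed here.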

Additional observations from a re-analysis of the deposited data

How the results depend on the processing

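Alternatives were a pseudocount of 0.1, no filter, a filter of 5 FPKM, other scaling, no trend, fits of 2 groups, isolated zeros set to missing, summed copies and each library left out. In all of these the embryonic genes fell and Hbb-bt, where fitted singly, rose in both comparisons against pre-HSC. In FL-HSC against ex-HSC, 2 globins were called, but 1 was with no filter, with copies summed and with median-of-ratios scaling when ex-HSC replicate 2 was left out, a setting added after the data were seen, and 1 to 4 were when a library was left out, with 2 higher and none lower without FL-HSC replicate 2 and 4 lower without replicate 1. All genes called there numbered 4564, and 2789 to 4418 with a library left out, and 2865 and 2789 with FL-HSC replicate 1 or 2 left out, where that group has 1 library. The embryonic share of alpha-like FPKM in FL-HSC was 7.63% after quantile normalization against 6.41%.

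With a library left out, log2 fold changes that changed sign ranged from -0.14 to 0.22 for Hba-a1 and -0.13 to 0.26 for Hba-a2 in ex-HSC against pre-HSC, from -1.85 to 0.27 for Hba-a1 in FL-HSC against pre-HSC, and in FL-HSC against ex-HSC from -1.91 to 0.21 for Hba-a1, -0.065 to 1.81 for Hba-x, -0.32 to 0.084 for Hbb-bt and -0.85 to 1.96 for Hbb-y. With the replicate block, Hbb-bt there was 0.036, and no globin call changed. Same-numbered libraries had correlations of deviations from their group means between -0.114 and 0.144, and the origin of the replicates is not given. The numbers were therefore not taken as pairs. In groups this small the deviations depend on each other, so a pairing was not excluded. Median-of-ratios scaling moved the median of all genes from -0.16 to -0.016 in ex-HSC against pre-HSC, from 0.13 to -0.0034 in FL-HSC against pre-HSC and from 0.27 to -0.017 in FL-HSC against ex-HSC, with the share of calls that were higher going from 35.6% to 48.5%, 52.9% to 46.3% and 72.5% to 50.4%, and with quantile normalization to 54.1%, 56.5% and 56.5%. The 2 FL-HSC libraries and unknown depth limit every FL-HSC value.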
